A study of Mus musculus with 36 samples.

Results

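The G1 phase regulators Ccnd1, Ccnd2, Ccnd3, Ccne1, Ccne2, Cdkn1a, Cdkn1b, Cdkn2c, Myc and E2f1 were taken from the deposited tables by gene symbol, as 10 of 19879 genes. RNA was sequenced from 36 libraries of BV-2 cells, a mouse microglial line that was immortalised with a retrovirus carrying v-raf and v-myc. The libraries form 12 groups of 3, made of 6 treatments at 4 h and 24 h, and the series describes 3 independent experiments. Vehicle libraries carry replicate numbers 4 to 6 and all libraries with LPS carry 1 to 3. The labels do not say whether these sets come from the same experiments. An effect of LPS against vehicle and a difference between the sets therefore cannot be told apart. The comparisons ask how lipopolysaccharide (LPS, a bacterial activator of microglia) and each of 3 drugs given with it changed transcript levels. Cells received only DMSO, only ethanol (EtOH), LPS at 600 ng/mL, LPS with dimethyl fumarate (DMF) at 30 µM, LPS with monomethyl fumarate (MMF) at 30 µM, and LPS with cannabidiol (CBD) at 6 µM. All groups were in medium with 0.1% serum from the start of treatment, with vehicle at 0.2%. DMF and MMF were dissolved in DMSO, whereas CBD was dissolved in EtOH. The labels do not name the vehicle in the wells with LPS alone, so there a difference in vehicle and a difference in treatment cannot be told apart. BV-2 is 1 cell line, and in bulk RNA fewer cells of a kind and less RNA per cell cannot be told apart.

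A cell in G1 commits to copying its DNA when D-type cyclins bind the kinases CDK4 and CDK6 and E-type cyclins bind CDK2, and these complexes phosphorylate the retinoblastoma protein. That releases E2F factors, of which E2F1 is one, and they switch on genes of DNA synthesis, the E-type cyclins included. The inhibitors p21 (Cdkn1a) and p27 (Cdkn1b) restrain cyclin-CDK complexes, p18 (Cdkn2c) binds CDK4 and CDK6, and MYC is a transcription factor that drives growth and cell cycle entry. Serum withdrawal is a classical way to raise p27 and slow the cycle, and LPS is known to slow the proliferation of macrophages.

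All 10 members are protein coding genes, and their positions are those in the deposited tables (GRCm39). The D cyclins are Ccnd1 (ENSMUSG00000070348, chr7:144483668-144493662, - strand), Ccnd2 (ENSMUSG00000000184, chr6:127102125-127129156, - strand) and Ccnd3 (ENSMUSG00000034165, chr17:47815976-47910616, + strand). The E cyclins are Ccne1 (ENSMUSG00000002068, chr7:37797409-37806959, - strand) and Ccne2 (ENSMUSG00000028212, chr4:11191351-11204779, + strand). The inhibitors are Cdkn1a (ENSMUSG00000023067, chr17:29309950-29319701, + strand), Cdkn1b (ENSMUSG00000003031, chr6:134897364-134902476, + strand) and Cdkn2c (ENSMUSG00000028551, chr4:109518073-109524386, - strand). The transcription factors are Myc (ENSMUSG00000022346, chr15:61857240-61862223, + strand) and E2f1 (ENSMUSG00000027490, chr2:154401327-154411812, - strand). Counts are per gene, so isoforms are not told apart.

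RefSeq promoter windows of GRCm38.p6 were at hand for 6 of the 10 members, Ccnd3, Ccne1, Cdkn1a, Cdkn1b, Cdkn2c and E2f1, in 9 windows. Ccnd1, Ccnd2, Ccne2 and Myc had no entry. The 250 bases before each RefSeq start are described here. GGGCGG, the GC box bound by Sp1, was in 7 of these 9 windows on either strand, against 32.7% of all 32851 windows, and every one of the 6 genes had it in at least 1 window. G and C made up 42.8% to 77.6% of the bases in the 9 windows, against a median of 52.4% over all windows. The Cdkn2c window at 42.8% and the Cdkn1a window at 54.0% did not hold GGGCGG. The part of base composition in this count was not tested. TGACG, the core of the cAMP response element, was in 3 of the 9, against 17.8%. The letters of an E2F site (TTTNNCGC), of an E-box (CACGTG) and of a cell cycle homology region (TTTGAA) were in 0 of the 9, against 4.3%, 6.0% and 16.0% of all windows. Part of the searched sequence lay at or past the first match to a GENCODE transcript of the gene. That was all 250 bases for E2f1 and both Cdkn2c windows, 158 for Ccne1, 209 and 43 for Ccnd3, and 0 for Cdkn1a and Cdkn1b. Bases farther upstream were not searched, so these counts do not show that the promoters lack such sites. Overlaps between searched motifs were not counted. The upstream stretches that no GENCODE transcript of the gene contains are printed for a D cyclin and an E cyclin that were low with CBD, the inhibitor that rose between 4 h and 24 h, and the inhibitor that varied least. Coordinates are of GRCm38.p6, each run is written 5′ to 3′ on the gene's own strand, and capitals mark GGGCGG or its complement CCGCCC, which the printed stretch of Ccnd3 does not hold.
Ccnd3 (chr17:47593217-47593423, + strand): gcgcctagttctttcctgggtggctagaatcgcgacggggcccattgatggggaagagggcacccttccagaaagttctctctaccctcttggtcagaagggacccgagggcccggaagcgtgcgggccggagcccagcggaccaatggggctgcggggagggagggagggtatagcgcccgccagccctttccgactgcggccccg
Ccne1 (chr7:38107649-38107740, - strand): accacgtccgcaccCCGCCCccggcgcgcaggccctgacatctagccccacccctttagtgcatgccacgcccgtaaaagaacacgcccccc
Cdkn1b (chr6:134920151-134920400, + strand): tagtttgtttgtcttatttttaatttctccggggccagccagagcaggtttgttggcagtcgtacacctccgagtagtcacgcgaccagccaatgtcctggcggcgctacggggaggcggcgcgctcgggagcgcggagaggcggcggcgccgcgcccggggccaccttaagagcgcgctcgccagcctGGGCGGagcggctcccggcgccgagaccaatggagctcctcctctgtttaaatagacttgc
Cdkn1a (chr17:29093519-29093768, + strand): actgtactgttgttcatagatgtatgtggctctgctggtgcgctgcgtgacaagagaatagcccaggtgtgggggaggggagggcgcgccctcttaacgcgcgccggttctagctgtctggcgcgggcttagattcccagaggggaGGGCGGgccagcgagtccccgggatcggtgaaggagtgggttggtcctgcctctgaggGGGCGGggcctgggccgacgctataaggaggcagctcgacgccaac

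Counted reads per library ranged from 14.1 M to 26.7 M around a median of 16.2 M. Microglia and macrophage markers were present, with 10 of 11 at a median normalized count of at least 10, and 7 at 100 or more. Csf1r, the receptor that microglia need to survive, lay between 4625 and 15408. P2ry12 (median 43.5), Aif1 (70.5) and Tmem119 (75.9) were far lower, and Sall1 had no value. Of 15 markers of other brain cells and of blood cells, 3 had a median of at least 10. Among them were Mbp (median 1101) and Pecam1 (71.5), and the neuronal marker Rbfox3 was at a median of 0. Mitochondrial genes took 1.254% to 1.396% of the reads in the LPS with CBD group at 24 h, and 1.44% to 2.32% in the other 33 libraries. The 1.44% was that of LPS replicate 1 at 24 h, and LPS replicates 2 and 3 at 24 h were at 2.32% and 2.04%. In LPS with CBD against LPS at 24 h, 5 of 10 tested microglial markers were called, 2 higher and 3 lower, where 48.7% of all genes were called. Of the markers of other cells, 2 of 3 tested were lower. The part of the lower mitochondrial share and of these markers in the results with CBD was not tested.

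Levels are given as read counts divided by size factors computed over all 36 libraries (normalized counts), as mean ± SD over 3 libraries. Per kilobase of exon and 1 M reads (RPKM), with the union of all annotated exons of a gene as its length, abundance was compared between members. Ccnd1 and Cdkn1a were the 2 most abundant members in 12 of 12 groups. Ccnd1 ran from 39.6 ± 11.3 to 159.6 ± 6.21 RPKM (SD, n = 3), and Cdkn1a from 70.3 ± 9.93 to 98.6 ± 12.4. Ccnd2 was next, at 14.4 ± 1.82 to 48.6 ± 2.76 RPKM. Cdkn2c was far lower, at 0.505 ± 0.101 to 1.96 ± 0.110 RPKM, and rested on 51 to 298 reads a library. Myc was not detectable at this depth in most libraries. For 8 of the 9 detected members, all but Cdkn1b, the lowest of the 12 group means was that of LPS with CBD at 24 h.

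**Figure D1:**
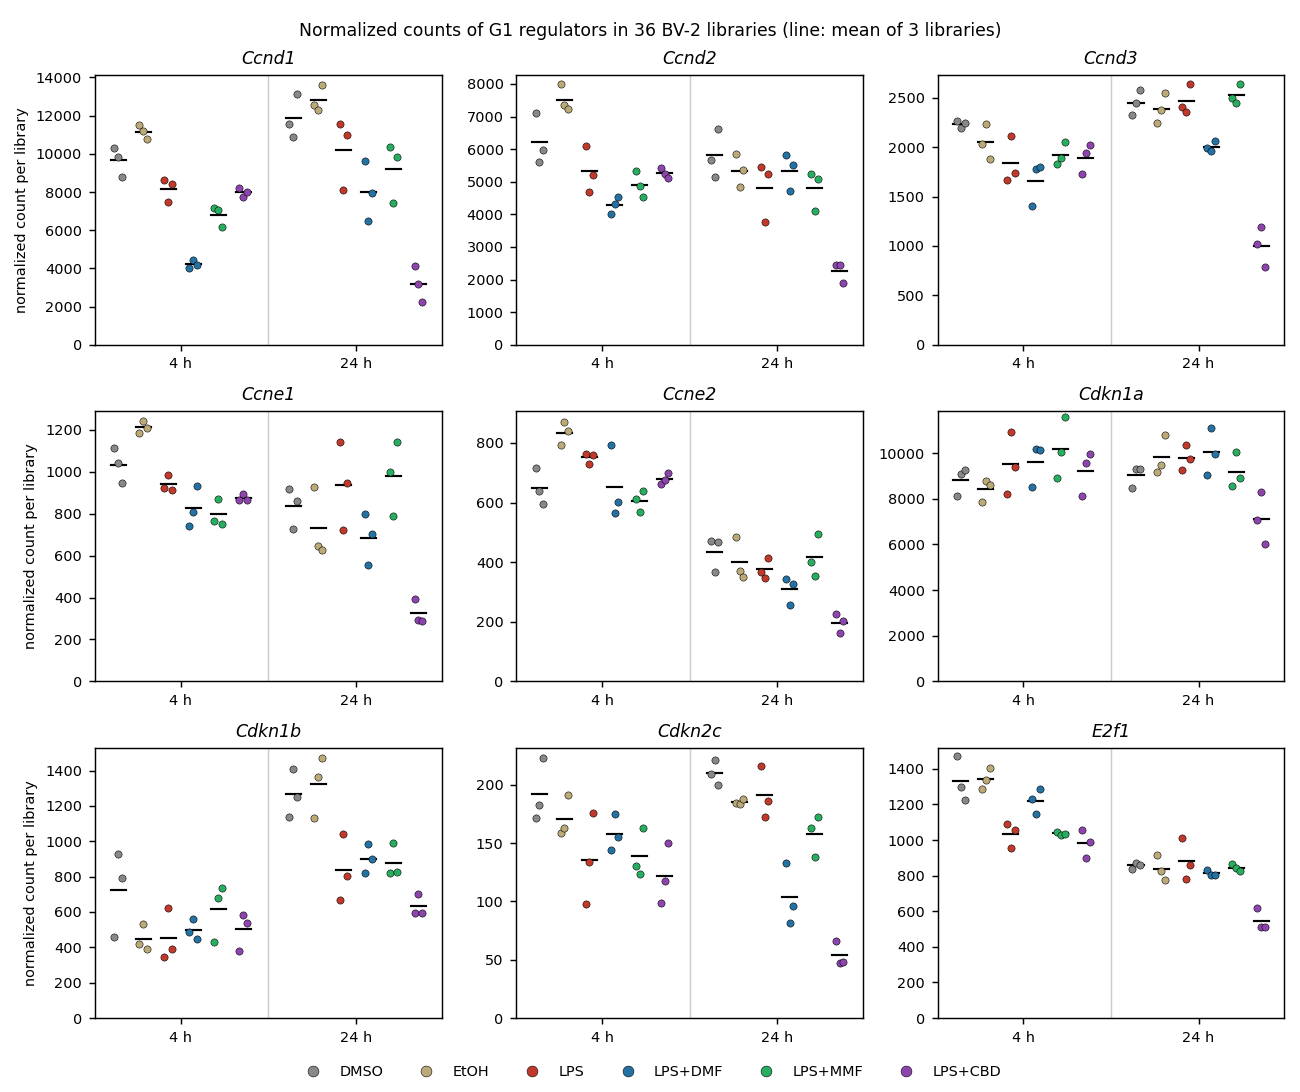
Normalized counts of the 9 detected members in each of 36 libraries, with treatments as colours, 4 h on the left and 24 h on the right of each panel, and a line at the mean of 3 libraries. LPS with CBD at 24 h (purple, right) is the lowest group in 8 panels, and Cdkn1b is higher at 24 h than at 4 h in each treatment.

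The order of the 12 group means was read against their spread, and neighbours in that order were taken as apart when their means differed by more than the sum of their SDs. Cdkn1a had 0 such steps among 11, so no neighbours in its order differed beyond their spread, and its highest mean was 1.43 times its lowest. Ccne2 had 4 steps, and 1 of them separated the 4 h groups, down to LPS with MMF at 606 ± 35.0, from the 24 h groups, from DMSO at 435 ± 59.3 down. E2f1, Ccnd2 and Ccne1 each had 2 steps, of which the lowest set LPS with CBD at 24 h apart from the group above it. Ccnd3 and Cdkn2c had 1 step, the same one. Ccnd1 had 2 steps, between LPS with CBD and LPS with MMF at 4 h and between LPS with MMF and LPS with DMF at 4 h. Its 2 lowest groups, LPS with DMF at 4 h and LPS with CBD at 24 h, were not apart. The single step of Cdkn1b divided the vehicle groups at 24 h, at 1266 ± 136 in DMSO, from the next group, LPS with DMF at 24 h (902 ± 81.6).

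Tests between groups were run with limma on each table's own normalized counts, and calls are at a Benjamini-Hochberg adjusted p below 0.05 over all genes tested in that table. Of the 10 members, 9 passed the filter on low counts in every comparison, and Myc in none. At 4 h, LPS against DMSO called 1 of the 9 members, lower, where 14.1% of all genes were called. LPS against EtOH called 4, all lower, at a background of 10.2%. These comparisons share the 3 LPS libraries. DMF with LPS against LPS called 1, lower, at 11.1%, and DMF against MMF, both with LPS, called 1, lower, at 8.34%. CBD with LPS against LPS called 0 of the 9 by limma, with 0 at an unadjusted p below 0.05 and 0 by edgeR and by DESeq2, and 0.00875% of all genes were called. MMF with LPS against LPS also called 0 by limma, edgeR and DESeq2, with 3 members at an unadjusted p below 0.05 and a background of 0.122%.

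At 24 h, LPS against DMSO and against EtOH each called 1 of the 9 members, lower, and the member was Cdkn1b in both, at backgrounds of 22.7% and 20.5%. CBD with LPS against LPS called 8 of the 9, all lower, while 48.7% of all genes were called, 2792 higher and 2895 lower. The median log2 fold change of the 9 members was -1.07, and that of all genes tested was 0.00. DMF with LPS against LPS called 2, both lower, at 25.1%, and 5 when the replicate number was added as a block, at 39.1%. DMF against MMF called 3, all lower, at 21.5%, and 7 with the block, at 39.8%. MMF with LPS against LPS called 0 of the 9 by limma, edgeR and DESeq2, with 0 at an unadjusted p below 0.05, and 0% of all genes were called.

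**Figure D2:**
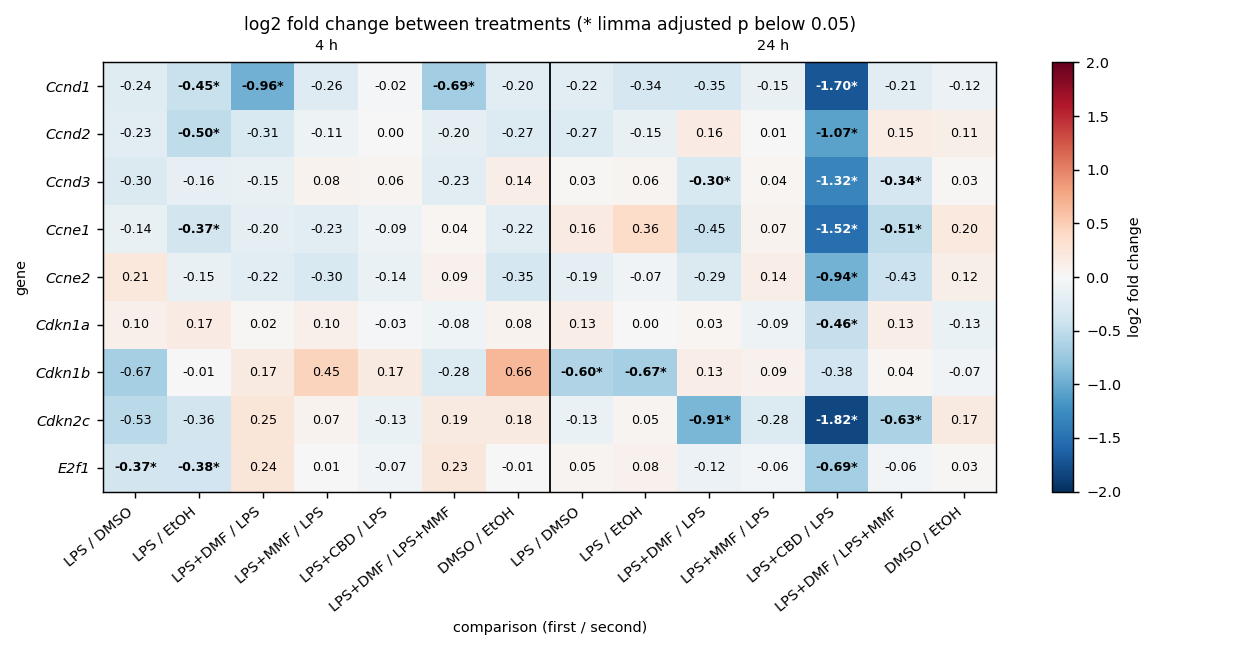
Log2 fold changes of the 9 tested members in 14 comparisons between treatments, 4 h on the left and 24 h on the right, with an asterisk where the limma adjusted p was below 0.05. The column of LPS with CBD over LPS at 24 h holds 8 called falls, and the columns of LPS with MMF over LPS hold none.

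Ccnd1 encodes cyclin D1, the D cyclin whose level follows growth signals most closely. Its normalized counts at 4 h were 8639, 7488 and 8395 with LPS, 4023, 4416 and 4201 with LPS and DMF, and 7149, 7064 and 6181 with LPS and MMF. The 3 DMF libraries were below every other library at 4 h. Ccnd1 fell to 0.515 of the LPS level with DMF (log2 fold change -0.96, SE 0.09, adjusted p = 0.000302, limma). The vehicle libraries at 4 h held 10321, 9842 and 8801 in DMSO and 11500.3, 11205 and 10792 in EtOH. All 3 LPS libraries were below all 6 vehicle libraries. The fall passed the test against EtOH (log2 fold change -0.45, SE 0.07, adjusted p = 0.00626, limma) and not against DMSO (log2 fold change -0.24, limma adjusted p = 0.0907).

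At 24 h the Ccnd1 counts were 11563, 8095 and 10974 with LPS and 4126, 3169 and 2251 with LPS and CBD. Every CBD library was below every other library at 24 h. Ccnd1 fell to 0.307 of the LPS level with CBD (log2 fold change -1.70, SE 0.21, adjusted p = 0.000171, limma). With DMF at 24 h the libraries held 9615, 6464 and 7934, which overlapped those with LPS. That difference did not pass the test (log2 fold change -0.35, limma adjusted p = 0.128) but did with the replicate number as a block (adjusted p = 0.000945). The DMF effect at 24 h less that at 4 h was 0.60 on the log2 scale (limma adjusted p = 0.0543), and with the block the adjusted p was 0.00232.

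Ccnd2 encodes cyclin D2. At 4 h its counts were 7986, 7356 and 7220.2 in EtOH, 7117, 5604 and 5978 in DMSO and 6092, 4694 and 5199.7 with LPS. The EtOH libraries stood above the other 15 libraries at 4 h, and DMSO and LPS overlapped. The fall with LPS passed the test against EtOH (log2 fold change -0.50, SE 0.10, adjusted p = 0.0139, limma), and against DMSO the log2 fold change was -0.23 (limma adjusted p = 0.204). The call against EtOH was lost without EtOH replicate 4 at 4 h (0.0696), EtOH replicate 6 at 4 h (0.0527) or LPS replicate 3 at 4 h (0.0668), with the adjusted p in brackets. With LPS and DMF at 4 h the libraries held 4016.5, 4305 and 4544, all below those with LPS. That difference did not pass the test (log2 fold change -0.31, limma adjusted p = 0.106), but did without LPS replicate 2 at 4 h (0.0472). At 24 h Ccnd2 was 5457, 3770.5 and 5239 with LPS and 2459, 2459 and 1897 with LPS and CBD. The groups did not overlap, and the level with CBD was 0.475 of that with LPS (log2 fold change -1.07, SE 0.15, adjusted p = 0.000419, limma). With DMF, Ccnd2 was at 5812, 4717 and 5505 at 24 h, within the range of the LPS and vehicle libraries (log2 fold change over LPS 0.16, 95% interval -0.14 to 0.46).

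Ccnd3, cyclin D3, stood at 2406, 2359.6 and 2642 with LPS at 24 h, at 1992, 1964 and 2062 with LPS and DMF, and at 1020.2, 1192 and 782 with LPS and CBD. These 3 groups did not overlap, with CBD lowest and DMF between. Ccnd3 fell to 0.400 of the LPS level with CBD (log2 fold change -1.32, SE 0.14, adjusted p = 7.07e-05, limma) and to 0.813 with DMF (log2 fold change -0.30, SE 0.07, adjusted p = 0.0133, limma). The call with DMF was lost without LPS replicate 3 at 24 h (0.0667) or LPS with DMF replicate 2 at 24 h (0.0536). At 4 h Ccnd3 was called in none of the comparisons between treatments. LPS against DMSO at 4 h came nearest, with counts of 1669, 2110.3 and 1738 against 2269, 2197 and 2246 that did not overlap (log2 fold change -0.30, limma adjusted p = 0.0671, and called by DESeq2 on the recovered reads).

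Per kilobase of exon, Ccnd1 made up most of the D cyclin transcripts in every library. Lengths were the union of all annotated exons, 4.78 kb for Ccnd1, 9.41 kb for Ccnd2 and 9.24 kb for Ccnd3. The isoforms in use were not told apart, so the size of each share depends on these lengths. Before division by length, Ccnd1 and Ccnd2 were close with LPS and DMF at 4 h, at mean normalized counts of 4213 and 4289. The Ccnd1 share was 69.1% ± 1.10 with LPS at 4 h (SD, n = 3), 69.1% ± 1.86 in DMSO and 66.0% ± 1.17 with LPS and MMF. With LPS and DMF at 4 h it was 58.1% ± 1.47, while Ccnd2 took 30.1% ± 0.98 and Ccnd3 11.8% ± 0.97. The highest Ccnd1 share in a DMF library at 4 h, 59.2%, was below the lowest in the other 15 libraries at 4 h, 64.8%. At 24 h the share was 73.1% ± 1.07 with LPS, 70.8% ± 1.78 with LPS and MMF, 67.8% ± 2.67 with LPS and DMF, and 65.0% ± 4.25 with LPS and CBD. The DMF libraries at 24 h, at 65.4% to 70.7%, overlapped the CBD libraries, at 62.2% to 69.9%.

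Ccne1 and Ccne2 encode the E cyclins that pair with CDK2. At 4 h Ccne1 stood at 1187, 1242 and 1211 in EtOH, 1114, 1042 and 949 in DMSO and 924, 983 and 914 with LPS. EtOH was above both other groups in every library, and DMSO and LPS overlapped. Ccne1 fell with LPS against EtOH (log2 fold change -0.37, SE 0.06, adjusted p = 0.0101, limma), a call that was lost without EtOH replicate 6 at 4 h (0.0533) or LPS replicate 3 at 4 h (0.0588) and in the fit of all 36 libraries (adjusted p = 0.124). Against DMSO the log2 fold change was -0.14 (limma adjusted p = 0.273). Ccne2 at 4 h was 763, 729.8 and 760.1 with LPS, above the 3 DMSO libraries at 717, 637 and 596 and below the EtOH libraries at 791, 871 and 838. Neither difference of Ccne2 passed the test (log2 fold changes 0.21 and -0.15).

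At 24 h Ccne1 was at 1144, 724 and 948 with LPS and 393, 294 and 286 with LPS and CBD. Ccne2 was at 367, 346 and 416 and 224, 162 and 202. For both genes every CBD library was below every other library of the series. Ccne1 fell to 0.350 of the LPS level (log2 fold change -1.52, SE 0.18, adjusted p = 0.000142, limma) and Ccne2 to 0.521 (log2 fold change -0.94, SE 0.14, adjusted p = 0.000544, limma). With DMF at 24 h, Ccne1 held 797, 556 and 702, overlapping LPS, and Ccne2 held 344, 255 and 328, all below the LPS libraries. Neither passed the test (Ccne1 log2 fold change -0.45, limma adjusted p = 0.0825, and Ccne2 -0.29, 0.128). With the replicate number as a block both did (adjusted p = 0.000615 and 0.0324). Ccne1 was also called by DESeq2 on the recovered reads (adjusted p = 0.0315) and in the limma fit of all 36 libraries (0.0316).

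Cdkn1a encodes p21, the inhibitor best known as a target of p53. It stood between 6024 and 11558 in all 36 libraries, and in 13 of the 14 comparisons between treatments it was not called. The exception was CBD with LPS against LPS at 24 h, with 7065, 8305 and 6024 against 9236, 10333 and 9722. The groups did not overlap, and Cdkn1a fell to 0.727 of the LPS level (log2 fold change -0.46, SE 0.11, adjusted p = 0.00855, limma), the smallest fall of the 8 called members. For LPS against DMSO the 95% interval of the log2 fold change was -0.16 to 0.35 at 4 h and -0.04 to 0.29 at 24 h.

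Cdkn1b encodes p27, the inhibitor that accumulates in resting cells. At 24 h its counts were 1137, 1408 and 1252 in DMSO, 1131, 1365 and 1473 in EtOH and 665, 1043 and 804 with LPS. All LPS libraries were below all vehicle libraries. Cdkn1b fell with LPS to 0.659 of the DMSO level (log2 fold change -0.60, SE 0.14, adjusted p = 0.0122, limma) and to 0.630 of the EtOH level (log2 fold change -0.67, SE 0.15, adjusted p = 0.00907, limma). The call against DMSO was lost without DMSO replicate 5 at 24 h (0.0609) or LPS replicate 3 at 24 h (0.0563), and that against EtOH held without each library. At 4 h the DMSO libraries spread widely, at 457, 929 and 790.5, and the LPS libraries were at 348, 624 and 390.1. They overlapped, and the difference did not pass the test (log2 fold change -0.67, limma adjusted p = 0.157). It did in the fit of all 36 libraries (limma adjusted p = 0.033). Against EtOH at 4 h the log2 fold change was -0.01.

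The 3 drugs left Cdkn1b uncalled against LPS at both times by limma. With CBD at 24 h it was 596, 704 and 596, and its highest library lay above the lowest LPS library (log2 fold change -0.38, limma adjusted p = 0.0584). With the replicate number as a block this difference passed (adjusted p = 0.00354), as it did with DESeq2 on the recovered reads (log2 fold change -0.40, adjusted p = 0.0287). With DMF it was 821, 984 and 901 (95% interval of the log2 fold change -0.18 to 0.44).

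Cdkn2c encodes p18, an inhibitor of the INK4 family. At 24 h its counts were 216, 172 and 186 with LPS, 133, 81.5 and 96.0 with LPS and DMF, 163, 138 and 172 with LPS and MMF, and 66.4, 47.4 and 47.7 with LPS and CBD. The 4 groups did not overlap, in the order LPS, MMF, DMF, CBD from the top, though the lowest LPS and the highest MMF library were nearly equal. Cdkn2c fell to 0.283 of the LPS level with CBD (log2 fold change -1.82, SE 0.18, adjusted p = 5.52e-05, limma), the largest fall of a member in any comparison between treatments. With DMF it fell to 0.533 (log2 fold change -0.91, SE 0.18, adjusted p = 0.00652, limma). With MMF the difference did not pass the test (log2 fold change -0.28, limma adjusted p = 1). At 4 h none of the comparisons between treatments called Cdkn2c, except LPS against DMSO in the fit of all 36 libraries (log2 fold change -0.53, limma adjusted p = 0.04). With DMF at 4 h Cdkn2c was 144, 175 and 156 against 98.0, 134 and 176 with LPS, which overlapped. The DMF effect at 24 h was lower than that at 4 h by the test of the difference (log2 fold change -1.16, SE 0.30, adjusted p = 0.0159, limma).

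Myc had 11 reads in all 36 libraries together, among 620 M counted reads. It was listed in 21 of the 30 deposited tables, and where a table left it out its libraries had 0 reads. Reads fell in 8 libraries, with at most 2 in any of them. LPS with CBD at 24 h held 5 of the 11, as 2, 1 and 2 reads. EtOH at 4 h held 2, LPS with MMF at 4 h held 2, DMSO at 24 h held 1 and LPS with MMF at 24 h held 1, and the other 7 groups held 0. A count of 0 allows a level of up to 0.113 reads per 1 M in the deepest library and 0.213 in the shallowest, for counting error only. All libraries lay at or under that floor of 3 reads, so no fold change is given and no difference between groups was detectable at this depth. The deposited table refers to the mouse gene, and whether reads of the v-myc carried by the line are counted there was not tested.

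E2f1 encodes a founding member of the E2F family, whose own gene is known to be cycle regulated. At 4 h its counts were 1470.5, 1301 and 1224 in DMSO, 1284, 1339.6 and 1402 in EtOH and 1091, 956 and 1057 with LPS. All LPS libraries were below all vehicle libraries. E2f1 fell to 0.775 of the DMSO level (log2 fold change -0.37, SE 0.09, adjusted p = 0.0253, limma) and to 0.771 of the EtOH level (log2 fold change -0.38, SE 0.07, adjusted p = 0.016, limma), and it was the one member called against both vehicles at 4 h. The call against DMSO was lost without DMSO replicate 4 at 4 h (0.0718), DMSO replicate 5 at 4 h (0.0624) or LPS replicate 3 at 4 h (0.0827), and that against EtOH without EtOH replicate 6 at 4 h (0.08) or LPS replicate 3 at 4 h (0.0616). With DMF at 4 h E2f1 was 1228, 1149 and 1286, above the LPS libraries in each case, but the difference did not pass the test (log2 fold change 0.24, limma adjusted p = 0.142). It did in the fit of all 36 libraries (limma adjusted p = 0.0474).

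At 24 h E2f1 lay close together in 5 of the 6 groups, with means of 812 to 885. LPS with CBD was apart, at 616, 513 and 511 against 1014, 779 and 861 with LPS. The level with CBD was 0.621 of that with LPS (log2 fold change -0.69, SE 0.12, adjusted p = 0.00141, limma). LPS against DMSO at 24 h gave a log2 fold change of 0.05 (95% interval -0.17 to 0.27). The LPS effect at 24 h less that at 4 h was 0.40 against DMSO and 0.45 against EtOH, and neither passed the test (limma adjusted p = 0.0874 and 0.0594).

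DMF is the dimethyl ester and MMF the monomethyl ester of fumaric acid, and both were given at 30 µM with LPS. They were compared at 4 h and at 24 h, as 1 pair at 2 times, with p adjusted over all genes tested at that time. At 4 h they differed in Ccnd1, which was at 4213 ± 196 with DMF and 6798 ± 536 with MMF (SD, n = 3). The groups did not overlap, and the level with DMF was 0.618 of that with MMF (log2 fold change -0.69, SE 0.09, adjusted p = 0.00214, limma, 95% interval -0.90 to -0.49). No other tested member passed at 4 h. The 95% interval of the log2 fold change of DMF over MMF was 0.04 to 0.42 for E2f1 (limma adjusted p = 0.137), -0.47 to 0.02 for Ccnd3 and -0.70 to 0.14 for Cdkn1b.

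At 24 h DMF was below MMF in Ccnd3, Ccne1 and Cdkn2c. Ccnd3 was at 1992, 1964 and 2062 with DMF and 2502, 2449 and 2635 with MMF, without overlap (log2 fold change -0.34, SE 0.06, adjusted p = 0.0059, limma, 95% interval -0.47 to -0.20). Cdkn2c did not overlap either (log2 fold change -0.63, SE 0.18, adjusted p = 0.0377, limma, 95% interval -1.04 to -0.22). Ccne1 did overlap, at 797, 556 and 702 with DMF against 999, 791 and 1144 with MMF (log2 fold change -0.51, SE 0.16, adjusted p = 0.0434, limma, 95% interval -0.87 to -0.16). The Ccne1 call was lost without LPS with DMF replicate 2 at 24 h (0.123), LPS with DMF replicate 3 at 24 h (0.114), LPS with MMF replicate 1 at 24 h (0.113) or LPS with MMF replicate 3 at 24 h (0.156), and the Cdkn2c call without LPS with DMF replicate 2 at 24 h (0.112), LPS with DMF replicate 3 at 24 h (0.129), LPS with MMF replicate 1 at 24 h (0.103) or LPS with MMF replicate 3 at 24 h (0.132). Ccnd1 at 24 h no longer differed past the threshold (log2 fold change -0.21, 95% interval -0.55 to 0.14, limma adjusted p = 0.364). With the replicate number as a block Ccne2 (-0.43, adjusted p = 0.00231), Ccnd1 (0.00575), Ccnd2 (0.15, 0.0189) and Cdkn1a (0.13, 0.0389) passed as well.

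MMF against LPS moved no tested member past the threshold at either time. At 4 h the difference with the lowest p was in Ccne2, at 611, 569 and 638 with MMF and 763, 729.8 and 760.1 with LPS, which did not overlap (log2 fold change -0.30, 95% interval -0.49 to -0.12, limma adjusted p = 0.429). For Ccnd1 at 4 h the log2 fold change over LPS was -0.26 with MMF (95% interval -0.46 to -0.06) and -0.96 with DMF (-1.16 to -0.76), against the same LPS libraries.

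The vehicles themselves, DMSO and EtOH, differed in 0 of 9 members by limma at 4 h, with 5 at an unadjusted p below 0.05, 0 by edgeR and 0 by DESeq2, and 0% of all genes were called. At 24 h the count was 0 by all 3 tools, with 0 at an unadjusted p below 0.05 and a background of 0.00854%. With the replicate number as a block, 5 members passed at 4 h, where 7.65% of all genes did. DMSO was below EtOH in Ccnd1 (log2 fold change -0.20, adjusted p = 0.00216), Ccnd2 (-0.27, 0.00124), Ccne1 (-0.22, 0.0256) and Ccne2 (-0.35, 0.00775), and above it in Cdkn1b (0.66, 0.00602). The part of such a vehicle difference in the LPS comparisons at 4 h was not tested.

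Between 4 h and 24 h Cdkn1b rose and Ccne2 fell in most treatments. Cells had spent the longer time in 0.1% serum in every treatment, so time with the treatment and time in low serum cannot be told apart. Cdkn1b rose in 5 of 6 treatments, most in EtOH, where the counts were 419.9, 531 and 389.9 at 4 h and 1131, 1365 and 1473 at 24 h. The groups did not overlap, and the level at 24 h was 2.92 times that at 4 h (log2 fold change 1.55, SE 0.13, adjusted p = 1.22e-05, limma). In DMSO the ratio was 1.78, with LPS 1.86, with LPS and DMF 1.80 and with LPS and MMF 1.46 (limma adjusted p = 0.00601, 0.00688, 0.000131 and 0.0204). The last of these was lost without LPS with MMF replicate 2 at 24 h (0.067). With LPS and CBD the ratio was 1.27, which did not pass (limma adjusted p = 0.0714).

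Ccne2 was lower at 24 h in all 6 treatments. Its counts in EtOH were 791, 871 and 838 at 4 h and 483, 370.3 and 349 at 24 h, and in no treatment did the libraries of the 2 times overlap. Log2 fold changes ran from -0.56 with LPS and MMF to -1.81 with LPS and CBD (limma adjusted p = 0.00332 and 2.47e-06). E2f1 fell in 5 treatments, to 0.616 of the 4 h level in EtOH (log2 fold change -0.70, SE 0.08, adjusted p = 6.13e-05, limma) and to 0.636 in DMSO (log2 fold change -0.65, SE 0.08, adjusted p = 0.000111, limma). With LPS alone its log2 fold change was -0.24 (limma adjusted p = 0.1), which passed with the block (adjusted p = 0.0386). Ccne1 fell in both vehicles (-0.34 in DMSO and -0.77 in EtOH) and with LPS and CBD (-1.45). With LPS alone it was -0.03 (95% interval -0.36 to 0.29). The Ccne1 call in DMSO was lost without DMSO replicate 5 at 24 h (0.0702) or DMSO replicate 4 at 4 h (0.0558) and in the fit of all 36 libraries (adjusted p = 0.0946).

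Ccnd1 and Ccnd3 had higher means at 24 h in 5 of the 6 treatments, all but LPS with CBD. Ccnd3 rose with LPS from 1839 ± 237 to 2469 ± 151 (SD, n = 3), a difference past the limma threshold (log2 fold change 0.42, SE 0.10, adjusted p = 0.00662), and it rose with LPS and MMF (log2 fold change 0.39). Ccnd1 rose most with LPS and DMF, from 4023, 4416 and 4201 at 4 h to 9615, 6464 and 7934 at 24 h, without overlap (log2 fold change 0.90, SE 0.13, adjusted p = 0.000177, limma). Its rise with LPS and MMF (0.42) was lost without LPS with MMF replicate 1 at 24 h (0.0565), LPS with MMF replicate 3 at 24 h (0.0518) or LPS with MMF replicate 3 at 4 h (0.0611). With LPS alone the log2 fold change was 0.30, called with the block (adjusted p = 0.0241) and not without it (0.0915, limma). Ccnd2 fell in EtOH (log2 fold change -0.52, SE 0.08, adjusted p = 0.00034, limma) and rose with LPS and DMF (0.31), the latter lost without LPS with DMF replicate 1 at 24 h (0.0753) or LPS with DMF replicate 3 at 24 h (0.0766).

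Some calls of smaller changes with time were lost when a library was left out, in most cases any of several. In DMSO the rise of Ccnd1 (0.27) was lost without DMSO replicate 6 at 24 h (0.101) or DMSO replicate 6 at 4 h (0.109). In EtOH that of Ccnd1 (0.18) was lost without EtOH replicate 5 at 24 h (0.0536), EtOH replicate 6 at 24 h (0.103), EtOH replicate 5 at 4 h (0.0602) or EtOH replicate 6 at 4 h (0.133). The rise of Ccnd3 in EtOH (0.20) was lost without EtOH replicate 5 at 24 h (0.104), EtOH replicate 6 at 24 h (0.144), EtOH replicate 4 at 4 h (0.0999) or EtOH replicate 6 at 4 h (0.193), and that of Cdkn1a (0.20) without EtOH replicate 5 at 24 h (0.0677), EtOH replicate 6 at 24 h (0.134), EtOH replicate 4 at 4 h (0.145) or EtOH replicate 6 at 4 h (0.0774). With LPS and DMF the rise of Ccnd3 (0.28) was lost without LPS with DMF replicate 1 at 24 h (0.0846), LPS with DMF replicate 2 at 24 h (0.0804), LPS with DMF replicate 3 at 24 h (0.129) or LPS with DMF replicate 1 at 4 h (0.0754). Without the last of these the log2 fold change was 0.16. The fall of Cdkn2c with LPS and DMF (-0.64) was lost without LPS with DMF replicate 2 at 24 h (0.0616) or LPS with DMF replicate 3 at 24 h (0.052). With LPS alone Cdkn2c had a log2 fold change of 0.52, called with the block (adjusted p = 0.046) and not without it (0.0565, limma).

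With LPS and CBD 8 of the 9 members fell between 4 h and 24 h. Ccnd1 went from 8186, 7764 and 8018 to 4126, 3169 and 2251 (log2 fold change -1.38, SE 0.17, adjusted p = 8.54e-05, limma), and Ccnd3 from 1724, 1939.5 and 2022 to 1020.2, 1192 and 782 (log2 fold change -0.95, SE 0.14, adjusted p = 0.000197, limma). Neither overlapped between the times. Cdkn1a fell too (-0.39), with overlapping libraries and a call lost without LPS with CBD replicate 1 at 24 h (0.0504), LPS with CBD replicate 3 at 24 h (0.0584), LPS with CBD replicate 2 at 4 h (0.0504) or LPS with CBD replicate 3 at 4 h (0.0829). Counts of members called between times are to be read against a background that was high throughout. They were 5 of 9 in DMSO (51.6% of all genes), 8 in EtOH (58.6%), 3 with LPS (48.9%, and 6 with the block, at 52.2%), 7 with LPS and DMF (58.8%), 5 with LPS and MMF (49.5%) and 8 with LPS and CBD (63.2%).

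The drug effects at the 2 times were compared by an interaction term in limma on 12 libraries. For CBD, 7 of 9 members had a lower effect at 24 h than at 4 h, where 32.0% of all genes were called, and 9 with the block, where 43.5% were. Ccnd1 had an effect of -0.02 at 4 h and -1.70 at 24 h, and the difference was -1.68 (SE 0.25, limma adjusted p = 0.000232). Cdkn1a (-0.42, limma adjusted p = 0.0877, and 0.00797 with the block) and Cdkn1b (-0.55, 0.188, and 0.00769 with the block) were the 2 others. For DMF 1 of 9 was called, Cdkn2c, at a background of 16.3%. With the block 4 were, at 24.2%, among them Ccnd2 (0.47, adjusted p = 0.022) and E2f1 (-0.35, 0.0394). For MMF 0 of 9 were called by limma, with 1 at an unadjusted p below 0.05, 0 by edgeR and 0% of all genes. For LPS against DMSO 0 were called by limma, with 3 at an unadjusted p below 0.05, 1 by edgeR (E2f1) and 9.46% of all genes, and against EtOH 0, with 3 at an unadjusted p below 0.05, 0 by edgeR and 9.00% of all genes.

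**Figure D3:**
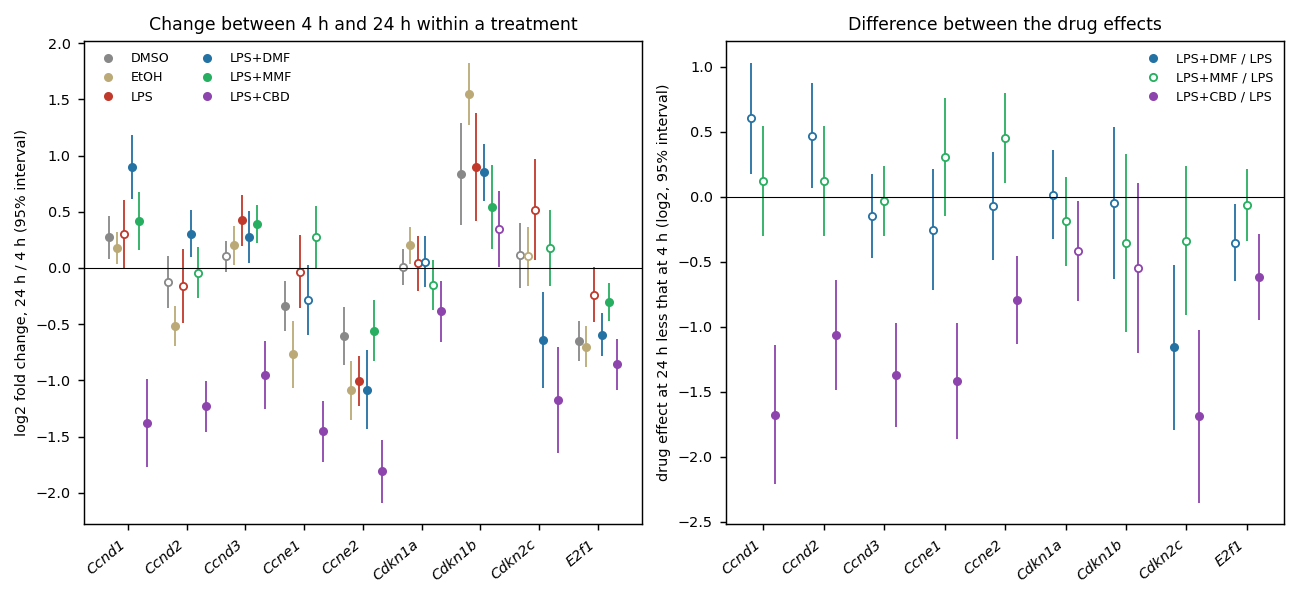
Left, log2 fold changes between 24 h and 4 h for the 9 tested members in 6 treatments, with 95% intervals from limma. Right, the effect of each drug over LPS at 24 h less that at 4 h. Filled points passed an adjusted p of 0.05, and LPS with CBD (purple) is the lowest point for all 9 members in both panels.

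Other genes of the G1 to S transition were read from lists, counted against the same backgrounds. Of 22 genes of DNA synthesis that E2F factors are known to drive, 21 of 22 fell with CBD against LPS at 24 h and 0 rose, with a median log2 fold change of -0.90, where 48.7% of all genes were called in either direction. The largest were Rrm2 (-1.87), a subunit of ribonucleotide reductase, Cdc6 (-1.63), which loads the replicative helicase, and Tk1 (-1.40), thymidine kinase. With DMF at 24 h 19 of 22 fell and 0 rose (median -0.61, at a background of 25.1%), led by Rrm2 (-0.93), Rrm1 (-0.85) and Mcm7 (-0.84). DMF against MMF at 24 h gave 16 lower, at 21.5%. At 4 h LPS against EtOH gave 8 lower, Tk1 (-0.51) first, and LPS against DMSO 1, at 10.2% and 14.1%. Between 4 h and 24 h 21 of 22 fell in EtOH, 21 in DMSO and 17 with LPS, at 58.6%, 51.6% and 48.9%.

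Of 29 other regulators of the transition, 27 were tested. With CBD at 24 h 18 fell and 0 rose, at 48.7%. The largest falls were E2f7 (-1.77) and E2f8 (-1.55), both repressor E2Fs, and Ccna2 (-1.46), the S phase cyclin. With DMF at 24 h 15 fell and 0 rose, at 25.1%. At 4 h LPS against DMSO gave 6 lower and 1 higher, and LPS against EtOH 5 lower and 1 higher, at 14.1% and 10.2%. The former was led by Tfdp2 (-0.77), an E2F partner, and Rbl2 (-0.74), the pocket protein p130 of resting cells. At 24 h LPS lowered Cdkn1c, the gene of the third inhibitor of the p21 family, against both vehicles (-1.42 and -1.63). Between 4 h and 24 h in EtOH Ccng2 (3.03), an atypical cyclin of resting cells, Cdkn2d (1.62) and Cdkn1c (1.30) rose most. The log2 values in this paragraph passed limma at an adjusted p below 0.05.

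The partners and antagonists of MYC were read in the same way. Of 11 tested, CBD at 24 h lowered 2 and raised 0, and DMF at 24 h lowered 1 and raised 1, both smaller shares than the 48.7% and 25.1% of all genes called. LPS against EtOH at 24 h lowered 4 and raised 1, at 20.5%. LPS against DMSO at 24 h lowered 4 and raised 0, at 22.7%, with the antagonists Mxi1 (-0.89), Mxd4 (-0.87) and Mnt (-0.52) first. Of 20 growth genes known as targets of MYC, 17 fell between 4 h and 24 h in EtOH and 17 with LPS, at backgrounds of 58.6% and 48.9%. With CBD at 24 h 13 fell and 0 rose, at 48.7%. With DMF at 24 h 4 fell and 0 rose, where 25.1% of all genes were called in either direction, with 1536 of 11670 lower. LPS against EtOH at 4 h raised 2 and lowered 0, at 10.2%, and these were Odc1 (0.95) and Rrs1 (0.26), a ribosome assembly factor. LPS against DMSO at 4 h raised 6 and lowered 0, at 14.1%, with Tfrc (1.23), the transferrin receptor, and Odc1 (0.98), the first enzyme of polyamine synthesis, at the head. Tfrc was not called against EtOH at 4 h.

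Cdkn1a can be set beside other targets of p53. Of 19 tested, CBD at 24 h raised 8 and lowered 5, at 48.7%, with Gdf15 (1.28) and Plk2 (0.82) higher and Sesn1 (-0.93) lower, while Cdkn1a fell. DMF at 24 h raised 6 and lowered 1, at 25.1%. Of 10 tested genes of FoxO factors and quiescence, the factors that are known to drive Cdkn1b, 8 rose and 0 fell in EtOH between 4 h and 24 h, and 7 rose and 0 fell in DMSO, at 58.6% and 51.6%. LPS against DMSO at 24 h lowered 6 and raised 0, against a background of 1227 lower and 1404 higher among 11574 genes. LPS against EtOH at 24 h lowered 7 and raised 0, at 20.5%. Ccng2 stands in this list and in that of G1 regulators, and Ccng1 in that of p53 targets and of G1 regulators.

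**Figure D4:**
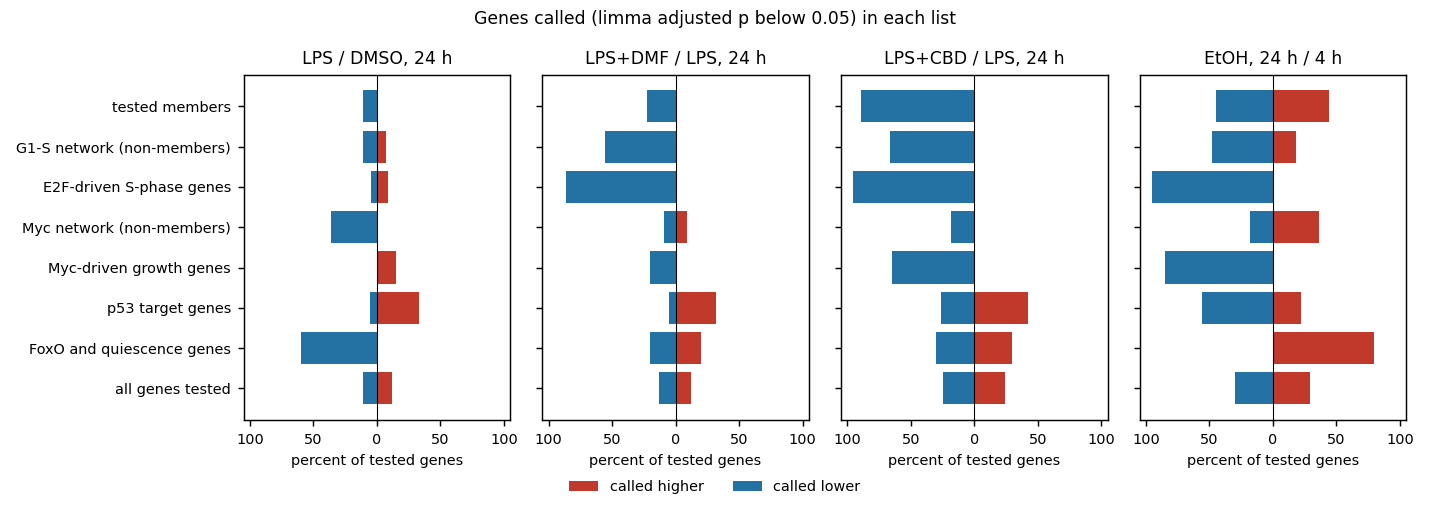
Percent of tested genes called higher (right, red) or lower (left, blue) by limma in each list, with all genes tested as the lowest bar, for 4 comparisons. The S phase genes are called lower in most cases with CBD, with DMF and in EtOH between the times, while the FoxO and quiescence genes are called lower with LPS and higher in EtOH between the times.

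Genes with the most similar pattern were found by Pearson correlation over the 12 group means, among 10095 genes with a mean normalized count of at least 50. They are given as a description, since the group means share libraries, times and normalization. Ccne1 was most like Hhex (r = 0.972) and Cdc6 (0.968), Ccne2 like Ube2e3 and Gen1 (both 0.987), and E2f1 like Tmem201 (0.978) and Selenoi (0.977). Ccnd1 was most like Hdgfl3 (0.971) and Cysltr1 (0.963), Ccnd2 like Fut4 (0.967), and Ccnd3 like Stk26 (0.973) and Cracdl (0.963). Among the inhibitors Cdkn1b was most like Appl2 (0.985) and Ddit4 (0.982), Cdkn2c like Eif4b (0.984) and Inafm1 (0.967), and Cdkn1a like Zfp335 (0.902) and Eeig2 (0.888). Among the members themselves Ccne2 and E2f1 were closest (0.917), and Cdkn1b ran against Ccne2 (-0.559).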

How the data were processed

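Per the labels and the study's methods, the authors removed adapters and low-quality bases (cutadapt 4.4, Trimmomatic 0.39), placed read pairs on GRCm39 (HISAT2 2.2.1), counted them per gene with HTSeq 2.0.3 and normalized them with DESeq2 1.40.2 in R 4.3.1. The strand setting of the counting is not given in the sources used here. The deposited values are a signal, read counts divided by the size factors of each table of 2 groups. The tables also hold the authors' fold changes, their errors and p-values, which were not used. All 3127002 values lay within 0.01 of a whole read after division by the step of their column, and the recovered reads gave a depth of 14.1 M to 26.7 M per library. Levels were put on 1 scale by median-of-ratios size factors over all 36 libraries, while tests used each table's own scale.

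Genes with a normalized count of at least 10 in at least 3 libraries were tested in 20 comparisons of 6 libraries with limma 3.58.1 (trend) in R 4.3.3 on log2(normalized count + 1), with Benjamini-Hochberg adjustment over all genes tested, so that fold changes of low genes are understated. Tables for other pairs of groups served only to recover reads. The 5 interactions between time and treatment used 12 libraries each. Alternatives were a pseudocount of 10, no filter, edgeR 4.0.16 and DESeq2 1.42.0 on recovered reads, the replicate number as a block, all 36 libraries in 1 fit, and leaving out each library. DESeq2 and the 36-library fit were not run for interactions. Replicate numbers were taken to pair the samples where all 3 correlations of deviations from the group means exceeded 0.1, which held in 10 of 16 comparisons that share numbers. The scripts were tested on simulated data. No pair of libraries within a group agreed within sampling noise (chi-square per degree of freedom 4.83 to 30.96). P-values and the 95% intervals of fold changes, both from limma, measure the spread between the 3 libraries of a group, which may be technical in part. The floor given for Myc covers counting error only.

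All 10 members are described. Of every other list, at most the 3 called genes with the largest log2 fold change in a comparison are named. Some genes that these rules select are not reported here. The members and lists were chosen with earlier results of these data known.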

Additional observations from a re-analysis of the deposited data

Results flagged for a closer look

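Values flagged here are differences between the effect of a drug at 24 h and at 4 h, each tested by an interaction term in limma with adjustment over all genes. For CBD over LPS the difference was -1.68 for Ccnd1, -1.07 for Ccnd2, -1.37 for Ccnd3, -1.42 for Ccne1, -0.80 for Ccne2, -1.69 for Cdkn2c and -0.62 for E2f1, on the log2 scale. The effect of CBD on each of these 7 genes was more negative at 24 h than at 4 h. The smallest of these differences, that of E2f1, had an adjusted p of 0.00793. For DMF over LPS the difference was -1.16 for Cdkn2c, whose effect was 0.25 at 4 h and -0.91 at 24 h. All groups held 3 libraries, so single libraries were not tested as outliers.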

How the results depend on the processing

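Of 66 calls of a member, none changed direction under any alternative, and 47 held without each library in turn. No call was lost with a pseudocount of 10, with edgeR, with DESeq2 or under the replicate block. The fit of all 36 libraries lost 6 and gained 7, and leaving out the filter on low counts lost 4. For LPS against DMSO at 4 h, DESeq2 called 2 members, where it called 1750 of 11424 genes, and the fit of all 36 libraries called 3. The 36-library fit called 2 for DMF against LPS at 4 h. For LPS against EtOH at 24 h DESeq2 called 2, where it called 2512 of 11775 genes. Shares of all genes called are not given here for the 36-library fit or without the filter. Between the times the number of members called was 3 in the 36-library fit for DMSO, 5 without the filter and 5 in the 36-library fit for EtOH. For LPS it was 5 with DESeq2 (5489 of 11510 genes), 6 with the block (52.2% of all genes) and 5 in the 36-library fit. The interaction of LPS against DMSO had 1 with edgeR, where 1159 of 11911 genes were called. With the replicate block the number was 5 for DMSO against EtOH at 4 h, 5 for DMF against LPS at 24 h, 7 for DMF against MMF at 24 h and 4 for the interaction of DMF. The shares of all genes were 7.65%, 39.1%, 39.8% and 24.2% in that order. Between the times, where the check did not pair the CBD samples, the block called all 9 tested members with CBD, Cdkn1b included (adjusted p = 0.0192), at 65.7% of all genes. LPS and vehicle groups carry different replicate numbers, so no block could be used between them. The cause of these changes was not tested.

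Without 1 library at a time the number of members called ran from 0 to 3 for LPS against DMSO at 4 h, 1 to 4 for LPS against EtOH at 4 h, 1 to 2 for DMF against LPS at 4 h, 0 to 2 for LPS against DMSO at 24 h, 1 to 2 for LPS against EtOH at 24 h, 1 to 4 for DMF against LPS at 24 h, 8 to 9 for CBD against LPS at 24 h, and 1 to 4 for DMF against MMF at 24 h. Between the times it ran from 4 to 5 in DMSO, 5 to 8 in EtOH, 3 to 4 with LPS, 4 to 7 with DMF, 4 to 5 with MMF and 7 to 8 with CBD. For the interactions it ran from 0 to 1 for LPS against DMSO, 0 to 3 for LPS against EtOH, 1 to 2 for DMF and 7 to 9 for CBD. Shares of all genes called without 1 library are not given here. With 3 libraries a group, and 51 to 298 reads a library for Cdkn2c, small differences are not resolved, and Myc is below what this depth can show.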
